A study of Mus musculus with 32 samples.

Results

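Cyclins are the regulatory subunits of the cyclin-dependent kinases (CDKs), and their rise and fall sets the order of the cell division cycle. The D cyclins (Ccnd1, Ccnd2, Ccnd3) are made in response to growth factors and switch on CDK4 and CDK6 in G1. The E cyclins (Ccne1, Ccne2) act with CDK2 at the entry into S phase. Cyclin A2 (Ccna2) works with CDK2 in S phase and with CDK1 towards mitosis, and the B cyclins (Ccnb1, Ccnb2) drive mitosis with CDK1. Cyclin F (Ccnf) binds no CDK and is the substrate receptor of a ubiquitin ligase that is most abundant in G2. In bone marrow-derived macrophages the growth factor M-CSF induces D cyclins, and fully differentiated macrophages leave the cycle. E, A, B and F cyclin transcripts are abundant only in dividing cells, because most of these genes are transcribed under the control of E2F, B-MYB and FOXM1.

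These 9 genes were selected by name, with earlier results of these data known. They are the rows of the count table whose Ensembl identifiers map to the symbols above, and were not picked by their values. They were 9 of 54281 gene identifiers, and all 9 passed the filter on low counts and were among the 15257 genes tested. Levels are given as CPM, the count of a gene scaled to the size of its library, with scaling factors by the trimmed mean of M values (TMM).

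The cells were bone marrow-derived macrophages, differentiated in L929-conditioned medium. In the Trex1 FL/FL genotype both Trex1 alleles are floxed, and in Trex1 WT/FL 1 allele is floxed and 1 is wild type. Trex1 encodes a DNA exonuclease of the cytosol. All cells of both genotypes carried R26-CreERT2, a Cre recombinase that 4-hydroxytamoxifen (4-OHT) activates, expressed from the Rosa26 locus, which is not specific to macrophages. Cells of each genotype were left untreated or exposed to 2 µg/ml 4-OHT for 22 h and were harvested 1, 2, 3 or 4 days after the exposure ended. Each of the 16 combinations had 2 libraries, 32 in all, with 35120505 to 63760884 counts each. 4-OHT-treated FL/FL cells are therefore the only group set to lose both Trex1 alleles, and 4-OHT-treated WT/FL cells control for Cre activity and for the loss of 1 allele. Nothing in the labels gives the age of the mice or ties a library to an animal or a culture, so p-values measure the spread between these libraries, which may be technical.

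Trex1 itself was at 0 in both 4-OHT-treated FL/FL libraries on days 1, 3 and 4 and at 0.347 and 0.25 CPM on day 2, against 12.2 to 79.4 CPM in 4-OHT-treated WT/FL cells. Macrophage markers were high in every library, and the sum of the 8 markers, led by Lyz2, ranged from 15300 to 48700 CPM (15300 to 39300 in 4-OHT-treated FL/FL and 16600 to 48100 in 4-OHT-treated WT/FL cells). All 7 neutrophil markers together reached at most 18.8 CPM (4.79 to 14.4 in 4-OHT-treated FL/FL and 5.86 to 18.8 in 4-OHT-treated WT/FL cells), and the T cell, erythroid, mast cell, stromal and dendritic cell lists at most 2.12 CPM each. The 4 B cell markers reached 6.58 CPM, led by Cd79b. In bulk RNA, fewer dividing cells and less cyclin RNA in each dividing cell cannot be told apart.

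Of the 9 cyclin genes, 5 have an entry in the RefSeq promoter table (built on GRCm38.p6), and their 6 windows, 250 bases before to 50 after the annotated start, each matched GRCm39 exactly once. Windows for Ccnd1, Ccnd2, Ccne2 and Ccna2 were not used here. The windows were searched on both strands for TTTGAA, the core of the cell cycle homology region through which DREAM and B-MYB complexes act, for the NF-Y box CCAAT, and for the E2F motifs TTTNGCGC and GGCGGGAA. The start regions of the 3 G2 and mitotic cyclins, all lower on day 4 after Trex1 deletion, are given from 150 bases before the RefSeq start, 5′ to 3′, with TTTGAA and CCAAT in capitals.
Ccnb1: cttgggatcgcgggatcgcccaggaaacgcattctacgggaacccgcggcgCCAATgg
Ccnb2: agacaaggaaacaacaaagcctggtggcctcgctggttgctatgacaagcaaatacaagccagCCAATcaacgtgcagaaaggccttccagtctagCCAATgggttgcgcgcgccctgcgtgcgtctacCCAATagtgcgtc
Ccnf: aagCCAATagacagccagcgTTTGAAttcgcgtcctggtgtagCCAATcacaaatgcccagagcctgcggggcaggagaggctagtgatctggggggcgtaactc
All 3 lie on the minus strand of GRCm39, at chr13:100923087-100923144 for Ccnb1, chr9:70328845-70328986 for Ccnb2 and chr17:24470429-24470533 for Ccnf. Each stretch stops 30 bases past the outermost start in the GENCODE vM39 annotation, which lies 122 bases upstream of the RefSeq start for Ccnb1, 38 for Ccnb2 and 75 for Ccnf. CCAAT occurred on the plus strand of the gene 2 times in the Ccnb1 window, 3 times in that of Ccnb2 and 2 times in that of Ccnf, against 37.4% of all 32851 windows with at least 1 copy on either strand. TTTGAA occurred 2 times each in the windows of Ccnb2 (first bases at -167 and 5) and Ccnf (-130 and -14), against 17.9% of all windows, and was not in those of Ccnb1, Ccne1 or Ccnd3. The cell cycle homology region was searched by these letters alone, so a window without them is not shown to lack it. The second of the 2 Ccnd3 windows held 1 CCAAT, and the Ccne1 window none of the 4 motifs. The outermost GENCODE start of Ccne1 lies 1349 bases upstream of its RefSeq start, so the Ccne1 window lies wholly past that start. Neither E2F motif, in 1.38% and 2.19% of all windows, occurred in any of the 6. Some matches lay past the GENCODE start and so not upstream of it. They were both CCAAT of Ccnb1 (-99 and -67), the CCAAT of Ccnb2 at -21, and the second TTTGAA of Ccnb2 and of Ccnf. The CCAAT of Ccnd3 (-108) was another, since the outermost GENCODE start lies 88625 bases upstream of the RefSeq start of that window. A match describes letters in a window and not an occupied site.

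In the 3 groups that kept at least 1 Trex1 allele, cyclin transcripts fell over the culture. From day 1 to day 4 all 9 cyclins fell in untreated WT/FL, untreated FL/FL and 4-OHT-treated WT/FL cells, where 26.3%, 26.7% and 26.7% of all genes fell. The median log2 fold change of the 9 cyclins was -3.29, -3.29 and -3.64, and that of all genes tested 0.02, 0.02 and 0.01. On the log2 scale Ccnd3 changed least (-0.71 to -0.53) and Ccne2 most (-4.75 to -4.63). The fall was not even. Between day 1 and day 2, 7 cyclins fell in untreated FL/FL and 4-OHT-treated WT/FL cells (18.3% and 18.4% of genes) and 6 in untreated WT/FL cells (18.1%), and none rose. Ccnb2, at -0.33 and -0.36 in the first 2 of these groups, was lost in untreated FL/FL cells without the second library of day 1 or either of day 2 or with the compared libraries alone (adjusted p = 0.0172), and in 4-OHT-treated WT/FL cells without any 1 of the 4 libraries. From day 2 to day 3, 8 of 9 cyclins fell in each of these groups (17.8%, 18.2% and 18.6% of genes), with log2 fold changes of -4.3 to -3.44 for Ccna2, Ccnb1, Ccnb2 and Ccnf. Ccnd3, at -0.16 to -0.15, missed the test (edgeR, adjusted p = 0.0138 to 0.02), and DESeq2 called it in all 3 groups.

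Day 3 was a low point, and from day 3 to day 4 a part of the cyclin set came back in these 3 groups. Ccnd1, Ccna2, Ccnb2 and Ccnf rose in all 3. Ccnb1 rose in both WT/FL groups and Ccne1 in both untreated groups. In untreated FL/FL cells Ccnb1 was at 0.65 and just missed the test (edgeR, adjusted p = 0.0127). It passed without the first library of day 3, with the compared libraries alone and in DESeq2. It also passed with other scaling factors (RLE and upper-quartile), without a filter on low counts and at a minimum count of 50. In edgeR, 6 cyclins were thus higher in untreated WT/FL, 5 in untreated FL/FL and 5 in 4-OHT-treated WT/FL, against 5.86%, 6.42% and 6.23% of genes. The log2 fold change was 0.94 to 1.21 for Ccna2 and 0.62 to 1.25 for Ccnb2. Ccnd3 fell in all 3 groups (-0.52 to -0.41), and Ccnd2 in both WT/FL groups (-1.01 in each), where 7.18% of genes fell in untreated FL/FL, 5.93% in 4-OHT-treated WT/FL and 6.39% in untreated WT/FL cells. In untreated FL/FL cells Ccnd2 went from 3.1 and 3.3 to 1.68 and 2.18 CPM. That change missed the test, and it passed at adjusted p below 0.05 and without a filter on low counts. Fitted on the compared libraries alone, the 7 calls in either direction in 4-OHT-treated WT/FL cells became 4, with Ccnd2, Ccnb2 and Ccnf lost, and untreated WT/FL cells lost Ccnd2 (-1.01, adjusted p = 0.0166) and Ccne1 (0.74, 0.0814). With 1 library left out, 4-OHT-treated WT/FL cells lost Ccnd2 (without the first of day 3 or the second of day 4), Ccnb1 (without the second of day 3 or either of day 4) and Ccnf (without the second of day 3 or the first of day 4). Untreated WT/FL cells lost Ccnd2 (without the first of day 3 or either of day 4) and Ccne1 (without the second of day 3 or of day 4).

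In 4-OHT-treated FL/FL cells, 7 cyclins fell between day 1 and day 2 (19.4% of genes), and Ccnd2 (2.15 ± 0.168 SE on the log2 scale) and Ccnd3 (0.21 ± 0.0539) rose (21.7% of genes), the call of Ccnd3 being lost without either library of day 1 or the first of day 2, or with the compared libraries alone (adjusted p = 0.0102). Between day 2 and day 3 all 9 cyclins fell (18% of genes), among them Ccna2 (-4.08) and Ccnd1 (-2.67). Between day 3 and day 4, Ccnd1 (log2 fold change 1.83 ± 0.0834 SE) and Ccnd2 (0.91 ± 0.165) rose (3.64% of genes), and Ccna2 (-2.24), Ccnb2 (-3.04), Ccnb1 (-1.55), Ccnf (-0.83) and Ccnd3 (-0.26) fell (5.7%). Of these calls, Ccnd2 and Ccnf were lost without the first library of day 3, Ccnd3 without the second of day 3, and Ccnd3 and Ccnf without the second of day 4. Fitted on the compared libraries alone, Ccnb1 (-1.58, adjusted p = 0.0153) and Ccnf (-0.84, 0.0131) were lost. Over the whole course, day 1 to day 4, 8 of 9 cyclins fell in these cells (27.7% of genes), with Ccna2 at -7.53 and Ccnb2 at -7.34 on the log2 scale, and Ccnd2 rose by 1.14 ± 0.166 (28.3% of genes rose).

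**Figure D1:**
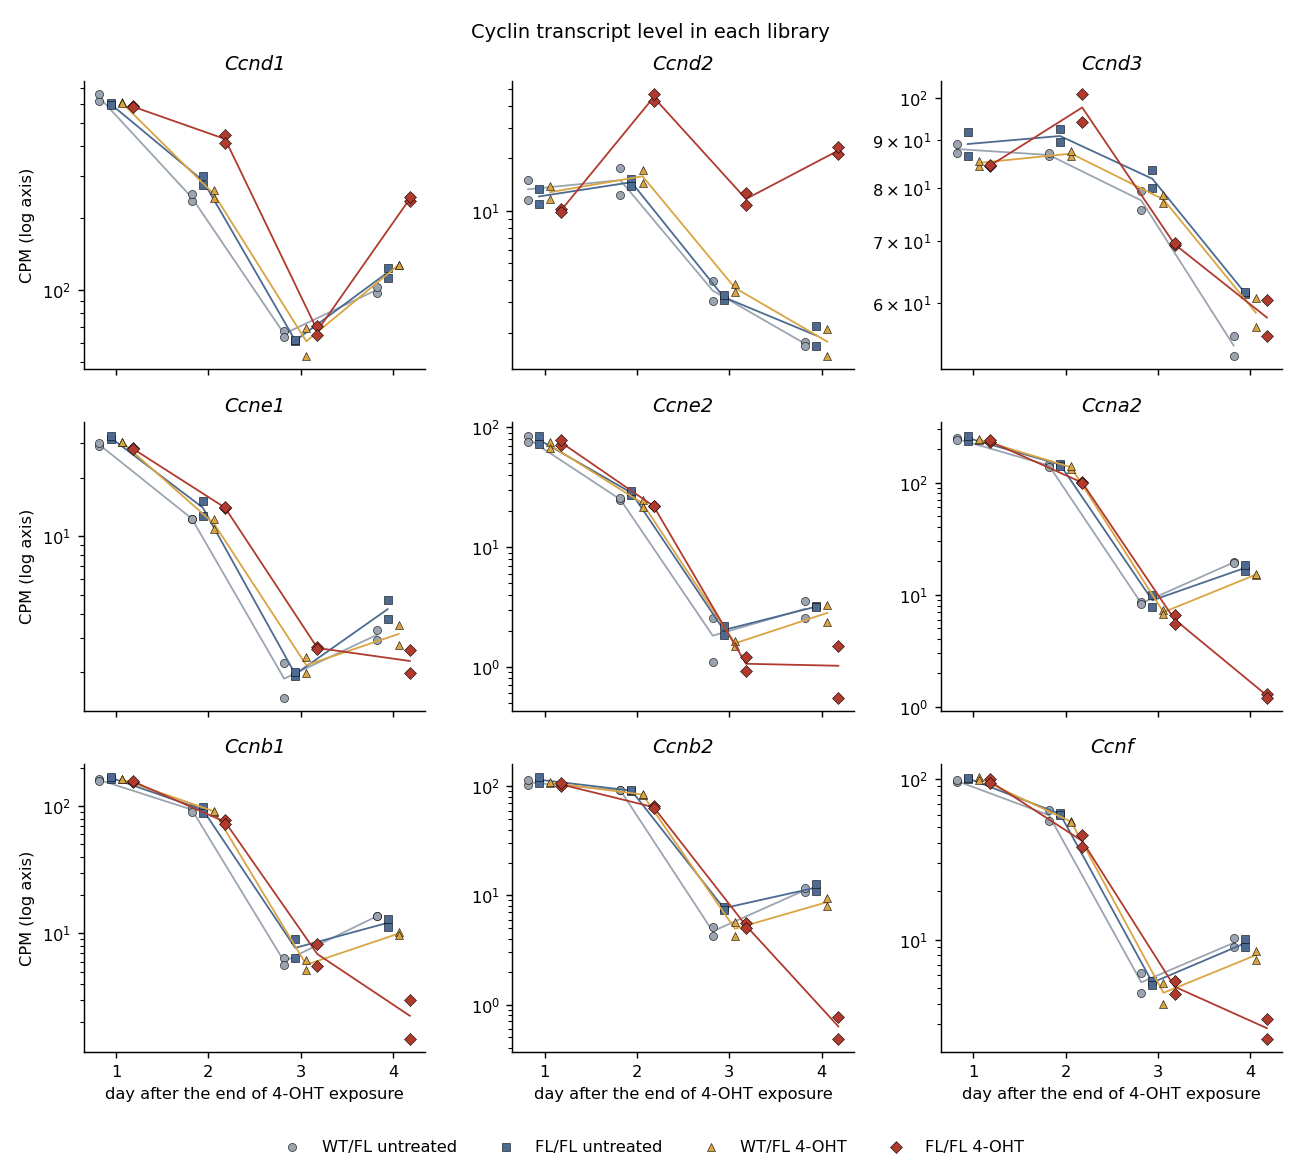
Level of each of the 9 cyclins (CPM, log axis, a separate range in each panel) against the day after 4-OHT exposure ended; each point is 1 library and each line joins the means of 2 libraries of a group. The 4-OHT-treated FL/FL libraries (red diamonds) sit above all others for Ccnd2 on days 2 to 4 and below all others for Ccna2, Ccnb1, Ccnb2, Ccnf and both E cyclins on day 4.

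The effect of deleting Trex1 was asked by comparing 4-OHT-treated FL/FL with 4-OHT-treated WT/FL cells on each day. These data hold RNA and no protein. By Western blot, the paper found that the protein declined over the days after exposure and was still abundant early on. The early comparisons are therefore of cells with the gene deleted, and not of cells known to lack the protein. On day 1 none of the 9 cyclins passed the test in edgeR or in DESeq2, with 1 at an unadjusted p under 0.05 (2.02% of all genes were), and 0.0197% of all genes passed. On day 2, Ccnd1 and Ccnd2 were higher (5.69% of genes were) and Ccna2 and Ccnb2 lower (2.48%). On day 3, Ccnd2 alone was called, and it was higher (6.69% of genes). On day 4, 7 of 9 cyclins differed, against 21.5% of all genes: Ccnd1 and Ccnd2 were higher (9.84%), and Ccne2, Ccna2, Ccnb1, Ccnb2 and Ccnf were lower (11.7%). The median log2 fold change of the 9 cyclins on day 4 was -1.48, and that of all genes tested -0.04. With the additional demand of the study for a change beyond 1.5 on the log2 scale, Ccnd2 stayed on the higher side (1.65% of genes) and Ccna2, Ccnb1, Ccnb2 and Ccnf on the lower side (1.32%). With 1 library left out at a time, the Ccnf value ran from -1.74 to -1.33, so its place there depended on single libraries.

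**Figure D2:**
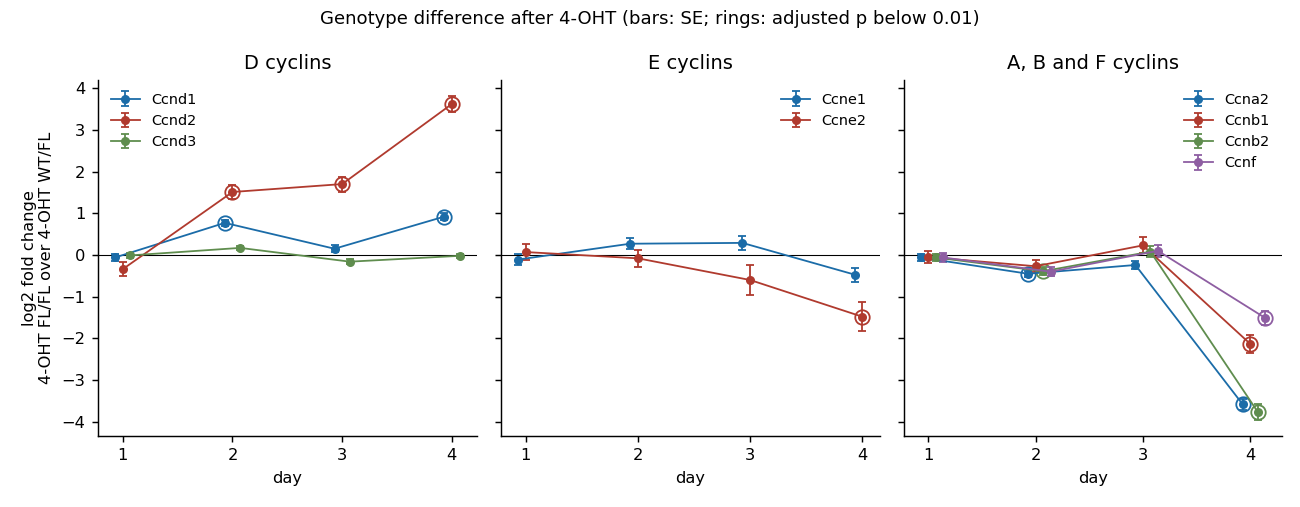
Log2 fold change between 4-OHT-treated FL/FL and 4-OHT-treated WT/FL cells on each day (bars, SE; 2 libraries a group), with rings where adjusted p was below 0.01. The D cyclins Ccnd1 and Ccnd2 lie above 0 on days 2 and 4, whereas Ccna2, Ccnb1, Ccnb2 and Ccnf drop on day 4 to between -1.51 and -3.76.

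Ccnd2 is a D cyclin whose transcript is induced by mitogens. On day 1 its level was 10.2 and 9.87 CPM in 4-OHT-treated FL/FL libraries and 13.8 and 11.7 in 4-OHT-treated WT/FL libraries, and the difference did not pass the test. On day 2 it was 42.8 and 46.7 CPM against 17.1 and 14.4, and on day 3 10.8 and 12.7 against 3.81 and 3.44. On day 4 it was 21.3 and 23.1 CPM against 2.09 and 1.47. From day 2 on the libraries of the genotypes did not overlap, and the 4-OHT-treated FL/FL libraries were also above all 4 untreated ones. The log2 fold change was 1.51 ± 0.163 on day 2 (adjusted p = 2e-07), 1.7 ± 0.179 on day 3 (1.32e-07) and 3.62 ± 0.193 on day 4 (1.42e-13), a 12.3-fold higher level. The day 4 value rested on 768 and 763 counts against 124 and 68.

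Ccnd1, a D cyclin that growth factor signalling induces, was higher on days 2 and 4. 4-OHT-treated FL/FL libraries held 586 and 582 CPM on day 1, close to the 611 and 603 of 4-OHT-treated WT/FL libraries. On day 2 the levels were 445 and 410 against 242 and 260 CPM, a log2 fold change of 0.77 ± 0.0799 (adjusted p = 9.78e-08). On day 3 they were 70.5 and 64.4 against 68.9 and 52.7 CPM, overlapping, and the log2 fold change was 0.15 ± 0.0823 (adjusted p = 0.244). That day rests on 1 library, since without the first 4-OHT-treated WT/FL library of day 3 the value was 0.36 and passed (adjusted p = 0.00297), and without the second it was -0.03. On day 4 the levels were 236 and 244 against 127 and 127 CPM, a log2 fold change of 0.92 ± 0.0808 (adjusted p = 1.12e-09).

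Ccnd3, the D cyclin that is kept in many differentiated blood cells, was nearly level between the genotypes. It lay between 84.5 and 101 CPM in 4-OHT-treated FL/FL cells on days 1 and 2, at 69.4 and 69.7 on day 3 and at 60.5 and 55.3 on day 4. 4-OHT-treated WT/FL cells held 56.5 and 60.8 CPM on day 4, and the groups overlapped. The log2 fold change on day 4 was -0.02, with a 95% interval of -0.13 to 0.1, and on days 2 and 3 it was 0.17 (adjusted p = 0.04) and -0.16 (0.0369).

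The E cyclins fell low in all groups before the genotypes parted. Ccne2 was at 70.6 and 78.9 CPM on day 1 in 4-OHT-treated FL/FL cells and at 1.2 and 0.923 on day 3, against 1.64 and 1.5 in 4-OHT-treated WT/FL cells that day. On day 4 it was at 0.554 and 1.48 CPM against 2.38 and 3.26, without overlap, a log2 fold change of -1.48 ± 0.348 (adjusted p = 0.00284). The call rested on 20 and 49 counts against 141 and 151. It was lost without the first 4-OHT-treated FL/FL library (-0.91, adjusted p = 0.0819) and without the second 4-OHT-treated WT/FL library (-1.25, adjusted p = 0.0305), and with the compared libraries alone (-1.44, adjusted p = 0.0222). Ccne1 was at 1.97 and 2.6 CPM on day 4 against 3.51 and 2.77, a log2 fold change of -0.47 ± 0.167 that missed the test (adjusted p = 0.033). On days 1 to 3 its fold changes lay between -0.11 and 0.29, and none passed.

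Ccna2, which acts in S phase and G2, was lower on days 2 and 4. On day 1 it was at 228 and 238 CPM in 4-OHT-treated FL/FL cells and at 241 and 245 in 4-OHT-treated WT/FL cells. On day 2 the levels were 101 and 99.3 against 132 and 142 CPM, below every other library of the day, and the log2 fold change was -0.45 ± 0.0749 (adjusted p = 6.96e-05). On day 3 they were 6.61 and 5.44 against 7.29 and 6.68 CPM, a value of -0.24 ± 0.102 that did not pass (adjusted p = 0.116). On day 4 they were 1.3 and 1.21 against 14.9 and 15.3 CPM, from 47 and 40 counts against 885 and 707. The log2 fold change was -3.58 ± 0.129 (adjusted p = 2.51e-17), a 12-fold lower level.

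Ccnb2, a mitotic cyclin, followed Ccna2. It was at 65.6 and 63.2 CPM in 4-OHT-treated FL/FL cells on day 2, against 83.6 and 84.6, a log2 fold change of -0.39 ± 0.0929 (adjusted p = 0.00483). This call was lost without any 1 of the 4 libraries, at -0.41 to -0.36. By library left out, the adjusted p was 0.028 and 0.042 without the first and second 4-OHT-treated WT/FL library and 0.0289 and 0.0624 without the first and second FL/FL library. On day 3 the groups overlapped at 5.61 and 4.98 against 5.67 and 4.22 CPM. On day 4 Ccnb2 was at 0.775 and 0.484 CPM, from 28 and 16 counts, against 7.98 and 9.4 CPM, from 473 and 435 counts. The log2 fold change of -3.76 ± 0.186 (adjusted p = 3.26e-14) was a 13.6-fold lower level.

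Ccnb1, the mitotic cyclin that partners CDK1 in most dividing cells, was at 78.3 and 72.5 CPM on day 2 against 90 and 92.2, without overlap but short of the threshold (log2 fold change -0.27 ± 0.142, adjusted p = 0.268). This result depended on the filter on low counts, without which the value was -0.28 and passed (edgeR, adjusted p = 0.00309). On day 3 the groups overlapped at 8.24 and 5.49 against 6.22 and 5.11 CPM. On day 4 it was at 3.02 and 1.48 CPM against 10.2 and 9.75, a log2 fold change of -2.13 ± 0.222 (adjusted p = 3.59e-07). With 1 library left out at a time, this value ran from -2.75 to -1.72 and stayed past the threshold. Of the 5092 words of 31 bases in its transcripts, 23.7% also occur in other genes, most of them in the pseudogene Ccnb1-ps, which itself was assigned 0 to 8 counts a library.

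Ccnf was at 44.7 and 37.6 CPM on day 2 in 4-OHT-treated FL/FL cells, against 54.6 and 53.9, a log2 fold change of -0.4 ± 0.111 that missed the test (adjusted p = 0.0177) and that DESeq2 called (adjusted p = 0.0062). On day 3 the levels were 5.58 and 4.63 against 5.39 and 3.98 CPM. On day 4 they were 3.21 and 2.42 against 8.52 and 7.54 CPM, a log2 fold change of -1.51 ± 0.159 (adjusted p = 6.08e-08), so that this ubiquitin ligase subunit was 2.85-fold lower, the smallest of the changes among the 4 S phase to mitosis genes.

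4-OHT was also compared with no treatment within each genotype. In FL/FL cells none of the cyclins passed on day 1 in edgeR or DESeq2, and none had an unadjusted p under 0.05 (7% of all genes had one, and 0.0131% passed). On day 2, Ccnd1 and Ccnd2 rose (7.49% of genes) and Ccna2, Ccnb2 and Ccnf fell (3.59%), Ccnf being lost without the first untreated library (-0.53, adjusted p = 0.0112) or the second 4-OHT-treated library (-0.44, 0.0335). On day 3, Ccnd2 rose (8.12%) and Ccnd3, Ccna2 and Ccnb2 fell (7.57%), and these 3 falls were lost without the first untreated library or without the second 4-OHT-treated library, which left 1 call, and that of Ccnd3 also without the first 4-OHT-treated library. With the compared libraries alone, Ccna2 (-0.57, adjusted p = 0.0145) and Ccnb2 (-0.52, 0.0166) were lost. On day 4, Ccnd1 and Ccnd2 rose (10.2%) and all of Ccne1, Ccne2, Ccna2, Ccnb1, Ccnb2 and Ccnf fell (11.2%), and Ccnd3 was at -0.09 (adjusted p = 0.253). Without the first 4-OHT-treated library the calls of Ccne1 (-0.69, adjusted p = 0.013) and Ccne2 (-1.1, 0.031) were lost, and without the first untreated library that of Ccne2 (-1.65, 0.0104). Untreated FL/FL cells on day 4 held 1.68 and 2.18 CPM of Ccnd2, 16.2 and 18.3 of Ccna2 and 11 and 12.7 of Ccnb2. Against them Ccnd2 was 11.7-fold higher, Ccna2 13.6-fold lower and Ccnb2 18.4-fold lower after 4-OHT. These contrasts share the 4-OHT-treated FL/FL libraries with the genotype comparison above.

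In WT/FL cells, 4-OHT gave no cyclin call on any day in edgeR, where 0.00655% (day 1), 0.0918% (day 2), 0.341% (day 3) and 0.216% (day 4) of genes passed. The number of cyclins with an unadjusted p under 0.05 was 0 on days 1 and 2, 1 on day 3 and 5 on day 4, against 2.48%, 3.47%, 8.4% and 7.08% of all genes. On day 4, the differences had the same signs as in FL/FL cells for several members and were smaller. Ccnd1 was at 127 and 127 CPM after 4-OHT and at 96.7 and 103 untreated, a log2 fold change of 0.35 ± 0.0809 (adjusted p = 0.0481), and Ccna2 at 14.9 and 15.3 against 19.6 and 19.3, -0.36 ± 0.0848 (adjusted p = 0.0476). DESeq2 called both of these, and without a filter on low counts edgeR called Ccnb1 and Ccnb2 as well. Ccnd2 was level at 0.05, with a 95% interval of -0.4 to 0.51.

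Untreated FL/FL and WT/FL cells, which both have TREX1, gave no cyclin call on any day in edgeR (0 of 15257 genes on days 1 to 3, and 0.0655% on day 4). The number with an unadjusted p under 0.05 was 0, 1, 1 and 4 on days 1 to 4, against 7.4%, 3.85%, 3.07% and 15.8% of all genes. The largest difference was that of Ccnb2 on day 3, at 7.88 and 7.41 CPM in FL/FL against 4.25 and 5.13 in WT/FL cells, a log2 fold change of 0.71 ± 0.128 (adjusted p = 0.0736), which DESeq2 called.

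**Figure D3:**
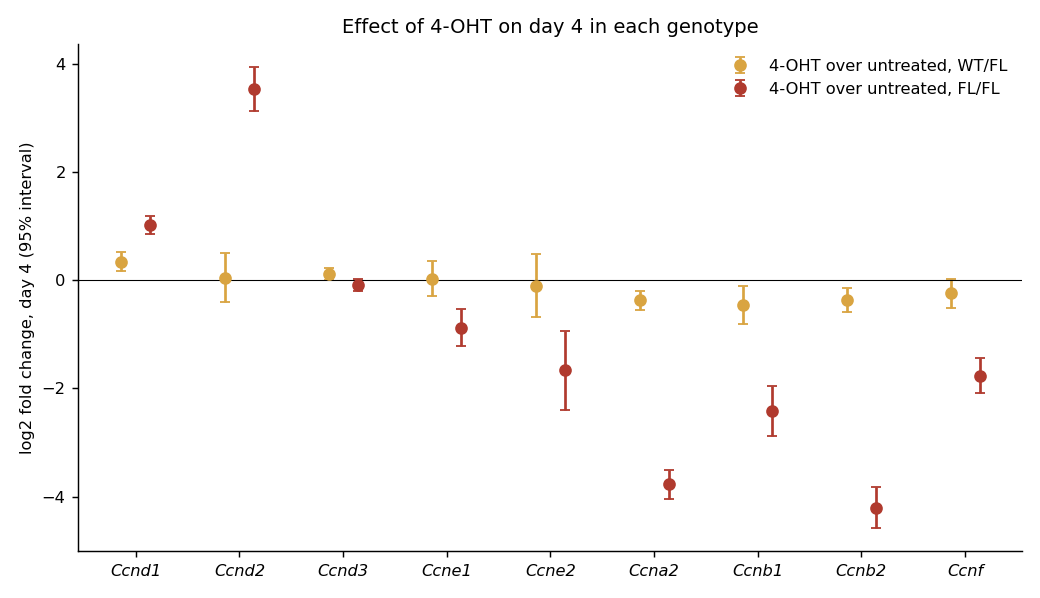
Log2 fold change of 4-OHT-treated over untreated cells on day 4 for each cyclin, in WT/FL (yellow) and FL/FL (red) cells, with 95% intervals; 2 libraries a group. In FL/FL cells the points run from 3.54 for Ccnd2 to -4.21 for Ccnb2, and in WT/FL cells all 9 lie between -0.45 and 0.35.

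Whether 4-OHT acted differently in the 2 genotypes was tested with the interaction term. On day 1 no cyclin passed in edgeR or DESeq2, and none had an unadjusted p under 0.05 (3.57% of all genes had one, and 0.00655% passed). On day 2, Ccnd1 (0.53) and Ccnd2 (1.55) were higher (3.55% of genes) and Ccna2 (-0.48) lower (0.492%). The count fell from 3 to 1 without the second untreated WT/FL library or without the first 4-OHT-treated FL/FL library, each of which took out Ccnd1 and Ccna2. Ccnd1 was also lost without the first 4-OHT-treated WT/FL or the second untreated FL/FL library, and Ccna2 without the second 4-OHT-treated WT/FL, the first untreated FL/FL or the second 4-OHT-treated FL/FL library. On day 3, Ccnd2 alone passed (1.83, 2.65% of genes were higher). On day 4, Ccnd1 and Ccnd2 were higher (5.15%) and Ccne1, Ccna2, Ccnb1, Ccnb2 and Ccnf lower (5.24%). The day 4 interaction was 3.49 ± 0.296 for Ccnd2 (adjusted p = 2.7e-09), -3.41 ± 0.16 for Ccna2 (2.57e-14) and -3.84 ± 0.225 for Ccnb2 (3.92e-12). Ccne2 (-1.57 ± 0.448, adjusted p = 0.021) missed the test, and it passed without the second 4-OHT-treated FL/FL library and in DESeq2. Ccne1 (-0.91 ± 0.229, adjusted p = 0.00555) was lost without any of 4 libraries. Those were the first untreated WT/FL library (-0.82, adjusted p = 0.0363), the first 4-OHT-treated WT/FL library (-0.72, 0.0618), the second untreated FL/FL library (-0.76, 0.0381) and the first 4-OHT-treated FL/FL library (-0.72, 0.0615). It was also lost with the compared libraries alone (-0.87, adjusted p = 0.0811).

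The genotype difference itself changed between days. From day 1 to day 2 it grew for Ccnd1 (by 0.82 on the log2 scale) and Ccnd2 (by 1.85), against 2.67% of genes with such a rise. From day 2 to day 3 it shrank for Ccnd1 (-0.62, adjusted p = 0.00311, 0.577% of genes), a call lost without any 1 of 4 libraries: the first 4-OHT-treated WT/FL library of day 2 (-0.57, adjusted p = 0.0186) or of day 3 (-0.41, 0.0296), the first 4-OHT-treated FL/FL library of day 2 (-0.56, 0.029) or the second of day 3 (-0.55, 0.0291). It was also lost with the compared libraries alone (-0.62, adjusted p = 0.129). From day 3 to day 4 it moved up for Ccnd1 (0.77) and Ccnd2 (1.92), with 1.67% of genes, and down for Ccna2 (-3.35), Ccnb1 (-2.36), Ccnb2 (-3.84) and Ccnf (-1.61), with 2.03%. With the compared libraries alone, Ccnd1 (0.79, adjusted p = 0.0216) and Ccnb1 (-2.38, 0.011) were lost.

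Levels of different cyclins were compared only after division by exon length (CPM per kb of the union of annotated exons), without a test. In untreated WT/FL cells on day 1 the order ran from Ccnd1 (129 and 138 CPM per kb) through Ccna2 (61.3 and 58.9), Ccnb2, Ccnb1, Ccne2, Ccnf, Ccnd3 and Ccne1 down to Ccnd2 (1.6 and 1.22), and no neighbours overlapped. This order depended on the length used, and several cyclins changed place by the longest transcript. For Ccnd3 the union of exons is 9245 bases and the longest transcript 3858. In 4-OHT-treated FL/FL cells on day 4 it was Ccnd1 (49.3 and 50.9), Ccnd3 (6.54 and 5.98) and Ccnd2 (2.26 and 2.45), each apart from the next, and then the other 6 cyclins at or below 0.718, where every pair of neighbours overlapped. Ccnd2 thus moved from the last place to the third. In 4-OHT-treated WT/FL cells on day 4 Ccnd2 was last, at 0.222 and 0.156 CPM per kb.

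The D cyclins together made up 96.0% and 96.5% of the summed CPM per kb of the 9 genes in the 2 4-OHT-treated FL/FL libraries of day 4. The share was 73.2% and 72.7% in 4-OHT-treated WT/FL, 67.3% and 67.4% in untreated FL/FL and 63.6% and 63.2% in untreated WT/FL cells that day. On day 1 all 8 libraries lay between 40.9% and 45.0%. On day 2 the 4-OHT-treated FL/FL libraries, at 55.9% and 55.2%, were above the other 6, which ranged from 34.2% to 39.0%. On day 3 the groups overlapped, at 75.3% and 78.0% against 69.5% to 76.8%. With 2 libraries a group an exact permutation test cannot go below a two-sided p of 0.33, so no test is given.

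**Figure D4:**
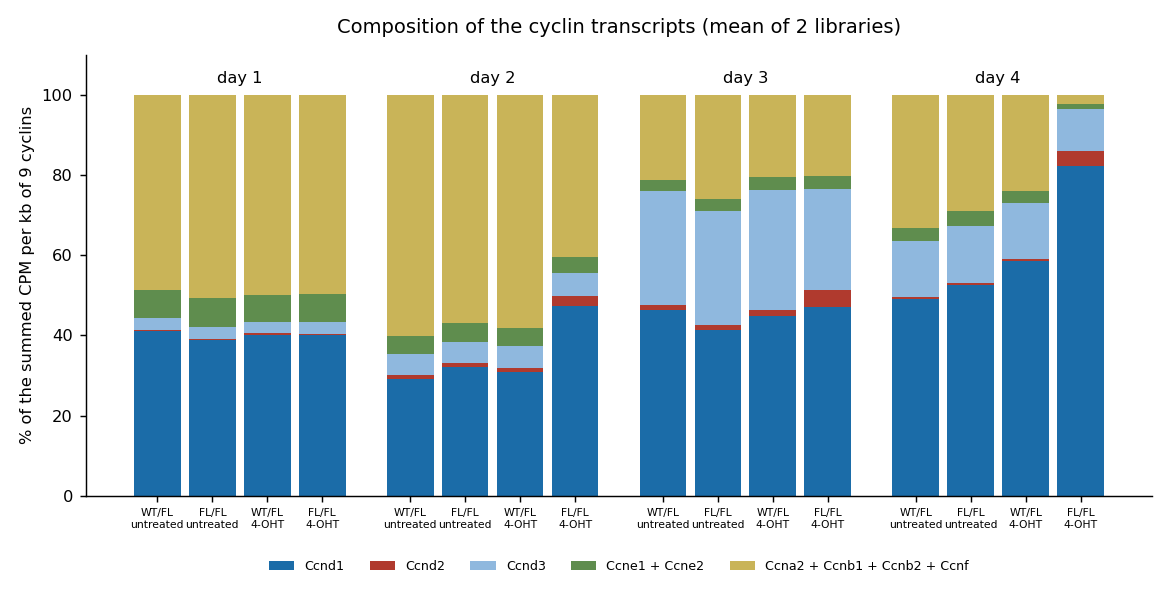
Share of each cyclin, or sum of cyclins, in the summed CPM per kb of the 9 genes (mean of 2 libraries per group), by day and group. D cyclins (blue and red parts) take 96.3% in 4-OHT-treated FL/FL cells on day 4 and 73.0% in 4-OHT-treated WT/FL cells.

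Genes that act with or on the cyclins were followed as lists in the genotype comparison on day 4. Among all genes tested, 11.7% were lower and 9.84% higher that day, and each list is given beside these shares. Of the 6 cyclin partners, 5 were lower and 1 higher, with a median log2 fold change of -0.5. Cdk1, the mitotic kinase, was at 11.9 and 9.9 CPM against 19.1 and 17.1 (-0.73), and Cdk2, the kinase of S phase, at 28.4 and 27.4 against 33.5 and 33.5 (-0.26). Among the G1 kinases that bind D cyclins, Cdk4 was lower (-0.26, 66.1 and 63 against 76.4 and 78.7 CPM) and Cdk6 higher (0.39, 136 and 147 against 107 and 108). All 4 kinases passed the test, with adjusted p between 1.36e-07 and 0.00218.

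Of the 8 genes that set CDK phosphorylation, 4 were lower and none higher (median -0.25), against 11.7% and 9.84% of all genes. Cdc25c, the phosphatase that activates CDK1, changed by -2.65 and Pkmyt1, a kinase that inhibits CDK1, by -1.61. Of 14 genes of cyclin degradation, 2 were lower and 1 higher (median -0.09), counts near the shares of all genes, so nothing is read from them about the list. Ube2c (-2.87), the ubiquitin-conjugating enzyme of the anaphase-promoting complex, and its activator Cdc20 (-1.56) were lower, and Anapc10, a core subunit named here after its value was seen, was higher (0.61). Of 20 regulators of cyclin genes tested out of 21, 9 were lower and 1 higher (median -0.19), against 11.7% and 9.84% of all genes. Past 1.5 on the log2 scale were E2f7 (-2.73), a repressor of E2F targets, Foxm1 (-2.15) and Mybl2 (-1.81), the activators of G2 and mitotic genes.

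Of 7 CDK inhibitors, 1 was higher and none lower (median -0.06), against 9.84% higher and 11.7% lower among all genes, so nothing is read from the count about the list. It was Cdkn1a, which encodes p21, named here after its value was seen, at 489 and 468 CPM against 235 and 227 (1.05). Of 15 other cyclin-box genes tested, most of which serve in transcription or are of less known function, 4 were higher and 1 lower (median 0.05), against 9.84% and 11.7% of all genes, and Ccnj, named here after its value was seen, had the largest change of the list (1.13). Of 14 proliferation genes, 12 were lower and none higher (median -0.87), against 11.7% and 9.84% of all genes. Mki67 was at 5.76 and 7.66 CPM against 47.9 and 47.2 (-2.83) and Plk1 at 0.858 and 0.303 against 7.56 and 6.53 (-3.57), while Birc5 changed by -3.05, Bub1 by -2.5 and Top2a by -2.09. Pcna (-0.05) and Mcm6 (-0.13), named here after their values were seen, were not called. These medians stand beside -0.04 over all genes tested.

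**Figure D5:**
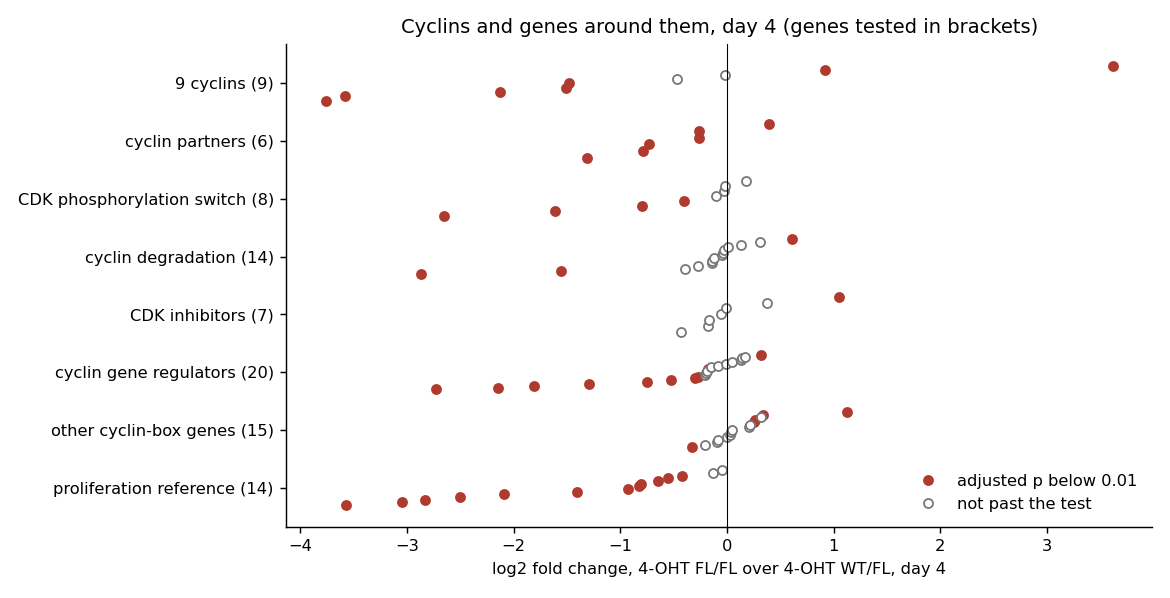
Log2 fold change between 4-OHT-treated FL/FL and 4-OHT-treated WT/FL cells on day 4 for each tested gene (1 point each) of the 9 cyclins and of 7 lists; filled points had adjusted p below 0.01. The cyclins span from -3.76 to 3.62, and filled points lie mostly left of 0 for the partners, the regulators and the proliferation genes.

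The genes whose group means ran closest to each cyclin over the 16 groups were found by Pearson's r of mean log2 CPM. For Ccna2 they were Kif14, Spag5 and Depdc1b, for Ccnb1 Sgo2a, Bub1b and Anln, for Ccnb2 Nusap1, Aspm and Hmmr, and for Ccnf Aurka, Cdca8 and Cks1b, with r from 0.997 to 0.999. For Ccne2 they were Rrm1, Cdk1 and Lmnb1 and for Ccne1 Tubg1 and Actl6a (r from 0.996 to 0.999). For Ccnd1 they were Camk2d, Zranb3 and Anxa1 (0.986 to 0.989), for Ccnd2 Gatm, Ctnnd2 and Atp10a (0.971 to 0.984) and for Ccnd3 Tram1 and Mterf2 (0.935 to 0.948). Among the cyclins themselves, r was 0.97 or more for every pair of Ccna2, Ccnb1, Ccnb2 and Ccnf and 0.4 between Ccnd2 and Ccnb2. Ccne2 had an r of 0.99 with Ccnb1 and Ccnf and 0.97 with Ccna2, and Ccne1 one of 0.98 with Ccnf. All of these values share the large change over days, and they describe likeness and nothing more.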

How the data were processed

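Transcriptomes of 32 macrophage libraries (2 genotypes, with or without 4-OHT, 4 days, 2 libraries each) were analysed from the deposited table of raw counts. Per the submitters' notes and methods, the authors used FastQC 11.9 for read quality and Salmon with GRCm39 for transcript abundance (its version and settings are not given in the sources used here), and tximport for gene sums, so the values are estimated counts (expected counts), deposited as whole numbers and not normalised; the authors then used DESeq2 1.32. Salmon can split reads between near-identical sequences, and strand settings were not given in the sources used here.

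Groups were taken from the labels. Identifiers were matched to GENCODE vM39 (51048 of 54281, and the others held 0.32% of counts). Library totals ranged from 35120505 to 63760884 (median 44841991). Genes were filtered with filterByExpr (minimum count 10), scaled by TMM and tested with edgeR 4.0.16 (R 4.3.3, robust quasi-likelihood F test, 1 mean per group, 16 residual degrees of freedom), with Benjamini-Hochberg adjustment over 15257 genes. A gene was called at adjusted p below 0.01, and the threshold of the study, which adds an absolute log2 fold change above 1.5, was an alternative. Errors are SE of the log2 fold change, and CPM values are given per library. The common biological coefficient of variation was 0.0912. The steps were tested on simulated data. Alternatives were DESeq2 1.42.0, RLE factors, upper-quartile factors, no filter, a minimum count of 50, fits of the compared libraries alone, adjusted p below 0.05, each library left out in turn, a replicate block by title number (added after seeing the data) and, for CPM per kb, the longest transcript. No scaling moved the median of all genes by more than 0.0748 on the log2 scale.

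The cyclins and the lists were chosen with earlier results of these data known. Named were all 9 cyclins, Trex1, Mki67, Cdk1, Cdk2, Cdk4 and Cdk6, and the genes of each list past both thresholds on day 4 (all if 6 or fewer, otherwise the 4 with the largest change), and others are marked where they appear. Likeness took the 3 genes with the highest r, of which some are not reported here. Promoter windows came from RefSeq, and no protein sequence was used here.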

Additional observations from a re-analysis of the deposited data

Results flagged for a closer look

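The effect of 4-OHT on the cyclins differed between the genotypes by a test of the difference itself (edgeR, adjusted p below 0.01) in these cases, as log2 interaction terms. On day 2 they were 0.53 for Ccnd1, 1.55 for Ccnd2 and -0.48 for Ccna2, and on day 3 1.83 for Ccnd2. On day 4 they were 0.68 for Ccnd1, 3.49 for Ccnd2, -0.91 for Ccne1, -3.41 for Ccna2, -1.96 for Ccnb1, -3.84 for Ccnb2 and -1.51 for Ccnf.

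The genotype difference after 4-OHT also differed between consecutive days. From day 1 to day 2 it changed by 0.82 for Ccnd1 and 1.85 for Ccnd2, and from day 2 to day 3 by -0.62 for Ccnd1. From day 3 to day 4 it changed by 0.77 for Ccnd1, 1.92 for Ccnd2, -3.35 for Ccna2, -2.36 for Ccnb1, -3.84 for Ccnb2 and -1.61 for Ccnf. Of all genes, 2.67% moved up from day 1 to day 2 and 0.577% down from day 2 to day 3. From day 3 to day 4, 1.67% moved up and 2.03% down. The Ccnd1 call from day 2 to day 3 was lost without any 1 of several libraries. With the compared libraries alone it was also lost (edgeR, adjusted p = 0.129), as were Ccnd1 and Ccnb1 from day 3 to day 4. No group of 2 libraries could be searched for a library far from the others.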

How the results depend on the processing

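No called log2 fold change of a cyclin changed its sign under any alternative. The labels name no animal, culture or batch that pairs libraries, but the title numbers of the 2 libraries of every group lie 16 apart, so a replicate block for the lower and the higher number within each genotype was added after seeing the data (edgeR, 14 residual degrees of freedom). The log2 differences between the lower and the higher number correlated weakly between groups of a genotype. In FL/FL r ran from -0.01 to 0.14 (median 0.06) and in WT/FL from 0.02 to 0.12 (median 0.07), over 0.1 in 5 of 28 pairs in each. It was below 0 in 1 pair in FL/FL and 0 in WT/FL. In no comparison did the block call fewer genes, and for 4-OHT in FL/FL on day 2 it called 2045 for 1690. Whether the numbers pair the libraries is not known, and the tests above leave them out. With this replicate block no cyclin call was lost within a genotype, in the interaction or in the change of the genotype difference, and that difference from day 2 to day 3 gave 2 calls for 1 (Ccnd3 added). The genotype comparisons have no such fit, because the runs of numbers differ between the genotypes. Of the counts of called cyclins, these moved by over 1.5 times. With the added threshold of 1.5 on the log2 scale, 1 cyclin was called in the genotype comparison, in 4-OHT-treated FL/FL against untreated cells and in the interaction on day 2, in 4-OHT-treated FL/FL against untreated cells on day 3 and in the change of the genotype difference from day 1 to day 2, and 0 in that from day 2 to day 3. Between day 1 and day 2 that threshold left 2 in 4-OHT-treated FL/FL, 0 in untreated FL/FL and 1 in each WT/FL group, and between day 3 and day 4 it left 4 in 4-OHT-treated FL/FL and 0 in the other 3 groups. At adjusted p below 0.05, 2 were called in the genotype comparison and the interaction on day 3, in the change of the genotype difference from day 2 to day 3 and for 4-OHT in WT/FL cells on day 4. Without a filter, 4-OHT in WT/FL cells gave 4 on day 4, the untreated genotypes 1 on day 3, and the interaction on day 3 and the change from day 2 to day 3 gave 2 each. DESeq2 gave 2, 1 and 2 for the first 2 and the last of these, and a minimum count of 50 gave 2 for the last. Fits of the compared libraries alone, with fewer samples, gave 2 for 4-OHT in FL/FL cells on day 3, 0 for the change from day 2 to day 3 and 4 for day 4 against day 3 in 4-OHT-treated WT/FL cells. By length of the longest transcript, 4 of 9 cyclins kept their place in the order of untreated WT/FL cells on day 1.

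With 1 library left out at a time, the counts ran from 1 to 2 for the genotype comparison on day 3 and from 1 to 2 for the interaction on day 3, where 2 were called without the first 4-OHT-treated WT/FL library (Ccnd1 added) and, for the interaction, without the second (Ccnb2 added). They ran from 1 to 4 for 4-OHT in FL/FL cells on day 3, from 1 to 3 for the interaction on day 2 and from 0 to 1 for the change of the genotype difference from day 2 to day 3. Small differences that were not called changed sign, and the cause was not tested. Ccnd3 on day 1 became 0.0027 with upper-quartile factors, 0.00039 at a minimum count of 50 and 0.0012 with the compared libraries alone, and on day 4 0.02 with the latter. With 1 library left out, the genotype difference ran from -0.01 to 0.15 for Ccne2 on day 1 and -0.16 to 0.0084 on day 2, from -0.03 to 0.36 for Ccnd1, -0.05 to 0.54 for Ccnb1, -0.11 to 0.32 for Ccnb2 and -0.09 to 0.35 for Ccnf on day 3, and from -0.09 to 0.05 for Ccnd3 on day 4. Low counts limit Ccnb2, Ccne2 and Ccna2 on day 4, where 4-OHT-treated FL/FL libraries held 16 to 49 counts. For Ccnb1 these libraries held 109 and 49 counts.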
